A study of Rattus norvegicus with 28 samples.

Results

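The levels of 6 messenger RNAs encoded by the mitochondrial genome were followed across 28 rat brain libraries: Cyb, Co1, Co2, Co3, Atp6 and Atp8. They were chosen by Ensembl gene identifier, which makes 6 of the 32623 gene rows in the deposited tables. The identifiers are ENSRNOG00000031766 (Cyb), ENSRNOG00000034234 (Co1), ENSRNOG00000030371 (Co2), ENSRNOG00000030700 (Co3), ENSRNOG00000031979 (Atp6) and ENSRNOG00000033299 (Atp8). The names come from that choice and not from the files, which pair no identifier with a name. All 6 passed the filter on low counts that left 18134 rows for testing.

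The study addressed the interaction of genotype with sex and estrous stage in the brain, using the inbred rats BN-Lx/Cub and SHR/OlaIpcv. Each strain had 12 libraries from females, with 4 at pre-estrus, 4 at estrus and 4 at post-estrus, and 2 from males. The labels give no age and no engineered allele, and the protocol calls the animals alcohol-naive, and every animal of a strain carries the same inbred background. The labels' extraction protocol mentions only male animals, whereas most samples are labelled female, and the groups follow those sample labels. The BN-Lx pre-estrus group holds replicates numbered 7a and 7b, and the labels do not say whether these were separate animals. Other replicates were taken as separate animals. If they were not, p-values measure only the spread between libraries.

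Mitochondrial DNA is transcribed as long precursors that are cut into single mRNAs, most of them at the transfer RNAs that lie between the coding regions. The brain relies on oxidative phosphorylation, in which complex III and complex IV pass electrons to oxygen and pump protons, and ATP synthase (complex V) uses the proton gradient to make ATP. Cyb encodes the cytochrome b subunit of complex III. Co1, Co2 and Co3 encode the core subunits of complex IV, cytochrome c oxidase. Atp6 and Atp8 encode subunits of the membrane part of ATP synthase, and their reading frames overlap on a shared transcript. The other subunits of these complexes come from nuclear genes.

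Gene counts ran from 42446718 to 87923728 per library. The 6 mRNAs took 2.25% to 3.91% of them, and the 2 mitochondrial ribosomal RNA rows took 18.0% to 42.5%. These 2 rows and 7 further mitochondrial mRNA rows were taken by a list of identifiers, and the only check on them was the length in the files. Markers of brain cell types could not be matched to identifiers, so the labelled tissue was not checked here. In whole tissue, fewer cells of a type and less RNA per cell cannot be told apart. The sample descriptions end in b35 (15 libraries) or b37 (13 libraries), a suffix whose meaning is not given, and the main fit carries a term for it. The profile of the spike-in RNAs also split the libraries, into sets of 16 and 12, with 90.5% of its variance on a single axis. SHR post-estrus replicate 13 had the lowest share of mitochondrial ribosomal RNA of all libraries, 18.0%, and the longest fragments.

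By mean count, Co1 ranked 5 among all gene rows, Co3 ranked 7, Co2 ranked 10, Atp6 ranked 12, Cyb ranked 16 and Atp8 ranked 250. The lowest count of any of the 6 in any library was 7401, for Atp8, where counting error alone is 1.16%. Differences between libraries were far above that counting error. Co1 varied least, by 1.90-fold between its lowest and highest library in TMM-scaled CPM, the counts of a gene scaled to a common library size. Atp8 varied most, by 4.50-fold. The remaining mRNAs ranged over 2.32-fold (Co2), 2.96-fold (Co3), 3.08-fold (Cyb) and 3.53-fold (Atp6).

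Levels of different mRNAs were compared per kilobase of the gene length in the files. Co1 stood highest at 12538 ± 1903 CPM per kilobase (SD, n = 28). Co3 followed at 5328 ± 1482, Co2 at 4485 ± 921, Atp6 at 3819 ± 965, Cyb at 1813 ± 479 and Atp8 at 1441 ± 406 CPM per kilobase. Co1 was above Co3 in 28 of 28 libraries and Atp6 was above Cyb in 28 of 28. The other neighbours were less separate, and the ranges of their levels overlapped. Co3 was above Co2 in 24 libraries, Co2 above Atp6 in 23 and Cyb above Atp8 in 21.

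The place of Atp8 depended on how length was counted. The authors' TPM divides by an effective length, the part of a transcript in which a whole fragment can start, and for the 204-base Atp8 row this was only 43.6 to 74.1 bases. By TPM, Atp8 reached 35.1% ± 6.24 of the Co1 level (SD, n = 28), against 11.5% ± 2.76 by CPM per kilobase, and it stood above Cyb in 28 of 28 libraries. Atp6, whose row is 681 bases long, moved little, from 30.4% ± 5.78 to 35.3% ± 6.58 of the Co1 level.

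**Figure D1:**
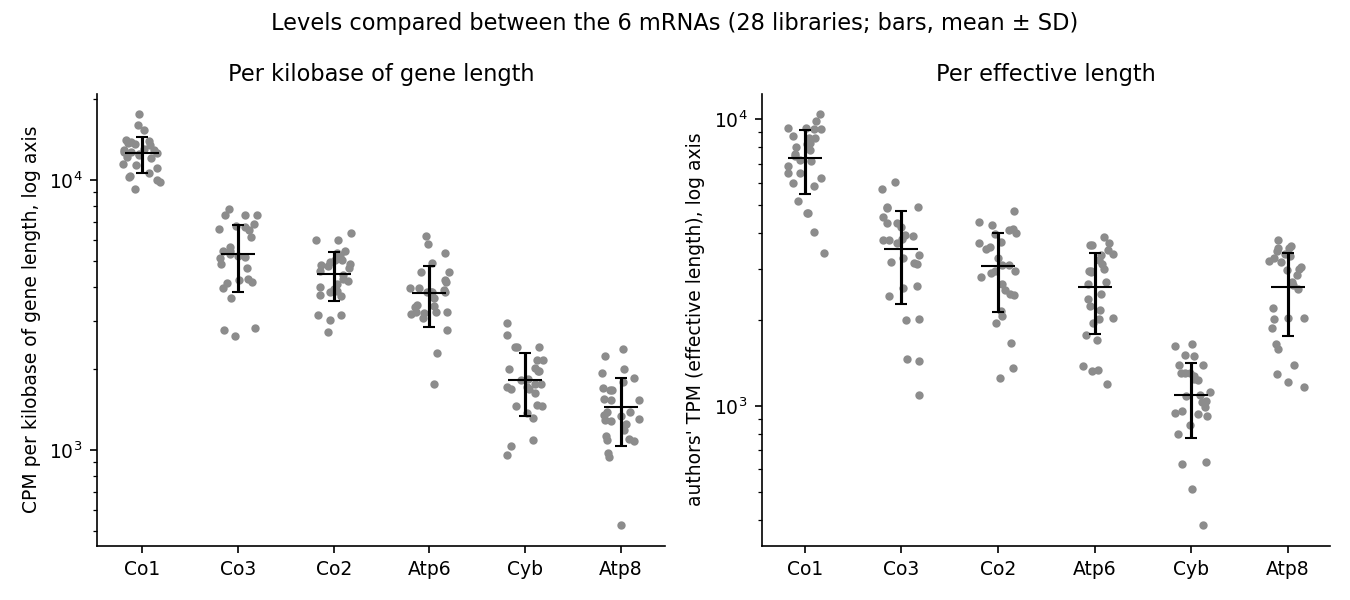
Levels of the 6 mRNAs in 28 libraries, as CPM per kilobase of gene length (left) and as the authors' TPM (right), both on log axes; points are libraries and bars show mean ± SD. Atp8 is lowest on the left and stands above Cyb on the right.

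The reads of Atp6 and Atp8 could not always be told apart by the counting. Expected counts were whole numbers in 28 of 28 libraries for Cyb, Co1, Co2 and Co3, and in 23 of 28 for Atp6 and for Atp8. Fractional counts arise where a read is divided between rows, and even 1 such read would give a fraction. How many reads were divided in the remaining 5 libraries is not known, nor is the effect on the split between Atp6 and Atp8. All 5 are SHR, namely pre-estrus replicates 8 and 11, post-estrus replicate 8 and both males, and 0 of 14 BN-Lx libraries are among them. In each of the 5, the summed Atp6 and Atp8 count was a whole number. Both mRNAs moved closely together across the 28 libraries, with Pearson r = 0.94 between their log2 CPM. Co2 and Co3 were nearly as close (r = 0.92), and the weakest likeness was 0.52, for Co1 with Atp8 and for Co3 with Cyb. These correlations are descriptions over libraries that share scaling and the mitochondrial share of the RNA.

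Among 13988 other rows that averaged 1 CPM or more, the 5 most like the mean log2 CPM of the 6 mRNAs over 28 libraries were led by further mitochondrial mRNA rows. ENSRNOG00000031033 had r = 0.954 and ENSRNOG00000029707 had r = 0.950. The other three, with r = 0.912 to 0.913, are not on the mitochondrial list and have no name in the files.

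The complex III mRNA Cyb was compared between strains first. In BN-Lx females its TMM-scaled level was lowest at 1186 CPM, had a median of 1762 and was highest at 3387 CPM. In SHR females the lowest was 1098, the median 2088 and the highest 2745 CPM. The ranges overlapped almost wholly. The strain difference, SHR against BN-Lx, was 0.06 on the log2 scale (SE 0.14, 95% interval -0.24 to 0.35, adjusted p = 0.894 by edgeR's quasi-likelihood test with Benjamini-Hochberg adjustment).

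None of the complex IV mRNAs was called in females. Co1 ran from 14239 to 27086 CPM in BN-Lx females, with a median of 18210, and from 15151 to 23666 CPM in SHR females, with a median of 19950. Its strain difference was 0.05 on the log2 scale (SE 0.09, 95% interval -0.14 to 0.24). Co2 differed by 0.03 (95% interval -0.22 to 0.29) and Co3 by 0.07 (95% interval -0.28 to 0.42). All of these intervals include 0, and the adjusted p-values in edgeR were 0.835 to 0.935.

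The ATP synthase mRNAs had lower values in SHR females. Atp6 stood at 4220, 2710, 3637 and 2626 CPM in the BN-Lx pre-estrus libraries (replicates 3, 5, 7a and 7b), at 3114, 2907, 2614 and 1889 CPM at estrus (replicates 2, 4, 8 and 9) and at 2304, 2204, 3941 and 3342 CPM at post-estrus (replicates 3 to 6). In SHR it stood at 1554, 3106, 2343 and 2211 CPM at pre-estrus (replicates 10, 11, 12 and 8), at 2702, 2481, 2091 and 2617 CPM at estrus (replicates 11, 5, 6 and 9) and at 2617, 1194, 2168 and 2848 CPM at post-estrus (replicates 12, 13, 6 and 8). The ranges overlapped, with SHR post-estrus replicate 13 lowest and BN-Lx pre-estrus replicate 3 highest.

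The Atp6 difference in females was -0.34 on the log2 scale (SE 0.14, 95% interval -0.63 to -0.04), with an unadjusted p of 0.0264 and an adjusted p of 0.164 in edgeR. Atp8 ran from 222 to 484 CPM in BN-Lx females, with a median of 327, and from 107 to 376 CPM in SHR females, with a median of 268. Its difference was also -0.34 (SE 0.17, 95% interval -0.69 to 0.005, unadjusted p = 0.0532, adjusted p = 0.255 in edgeR). In all, 0 of the 6 mRNAs were called between the strains in females, where 9.42% of all rows were called at an adjusted p under 0.05. An unadjusted p under 0.05 in edgeR was reached by 1 of the 6, beside 3719 of all 18134 rows. Values within each suffix differed in size. Among b35 libraries Atp6 differed by -0.60 (adjusted p = 0.0817) and Cyb by -0.33, and among b37 libraries Atp6 differed by -0.10 (adjusted p = 0.905) and Cyb by 0.41, all on the log2 scale and without a call.

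**Figure D2:**
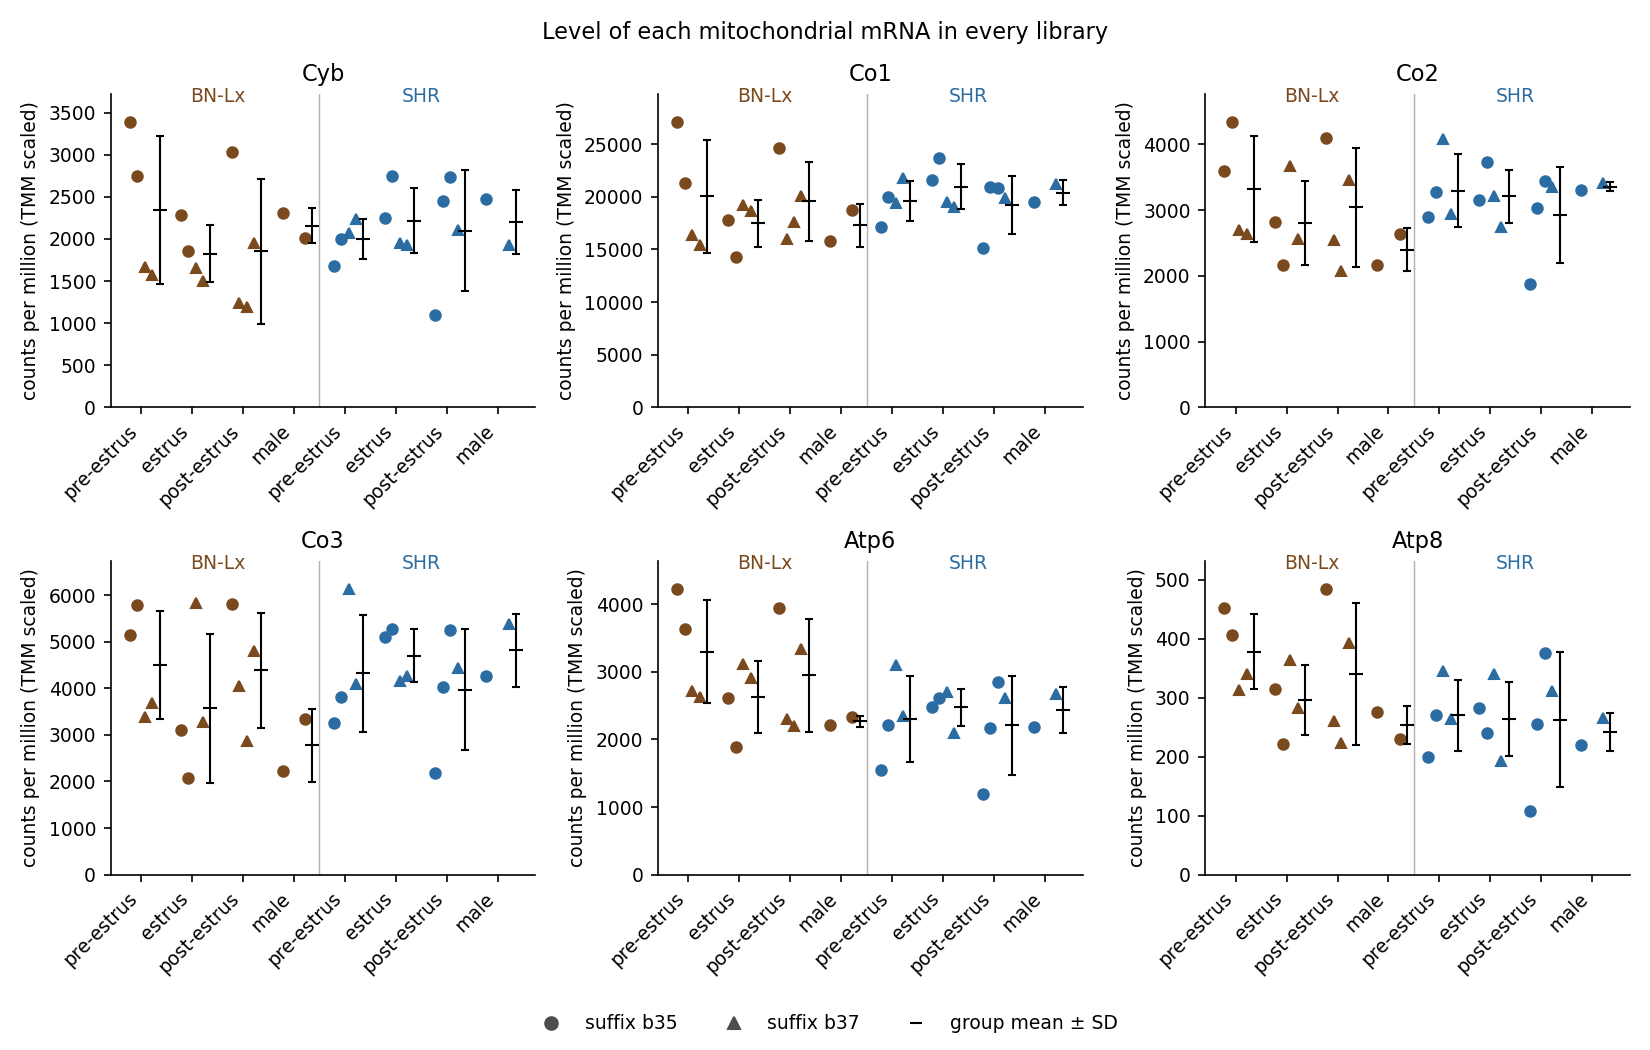
TMM-scaled CPM (y axis) of each mRNA in every library, by strain and by stage or sex (x axis); circles are b35 and triangles b37 libraries, and bars show the group mean ± SD. The values of BN-Lx and SHR females overlap for all 6 mRNAs. Those of the males, 2 a strain, do not overlap for Co1, Co2 and Co3. Of the 6, 0 were called in males, beside 0.8% of all rows, and how many of all rows separate in this way was not counted. SHR post-estrus replicate 13 lies lowest for Cyb, Co2, Atp6 and Atp8.

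Atp6 and Atp8 took a smaller part of the mitochondrial mRNA pool in SHR than in BN-Lx. The pool was the summed count of the 13 mitochondrial mRNA rows, and a share of it does not depend on how much mitochondrial RNA a library holds. Co1 made up the largest part, 47.3% to 60.3% in BN-Lx females and 47.0% to 61.8% in SHR females.

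Atp6 held 8.22%, 8.74%, 8.09% and 8.64% of the pool at pre-estrus in BN-Lx, 8.09%, 8.88%, 7.75% and 7.22% at estrus, and 7.75%, 7.57%, 8.00% and 8.56% at post-estrus. In SHR it held 5.08%, 7.54%, 5.92% and 6.08% at pre-estrus, 7.18%, 6.10%, 5.93% and 5.81% at estrus, and 6.82%, 4.87%, 5.58% and 6.75% at post-estrus, with replicates in the order given above. Of 12 SHR females, 11 were below the lowest BN-Lx female, and the exception was pre-estrus replicate 11. The means were 8.13% ± 0.509 in BN-Lx and 6.14% ± 0.805 in SHR (SD, n = 12 each).

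The 2 males of each strain stood in the same order, with shares of 7.49% and 6.90% in BN-Lx males and 6.57% and 5.76% in SHR males. Atp8 held 0.768% to 1.12% of the pool in BN-Lx females and 0.438% to 0.902% in SHR females. Of the SHR females, 8 of 12 were below every BN-Lx female. In males it held 0.936% and 0.684% in the BN-Lx pair and 0.651% and 0.578% in the SHR pair, again without overlap. Such separation of 2 males from 2 was not particular to Atp6 and Atp8. The male shares of Co1 (53.7% to 55.7% in BN-Lx, 51.4% to 52.3% in SHR), Co2 and Co3 did not overlap either, and those of Cyb did. How many of all rows separate in males in this way was not counted. In females the shares of Co1, Co2 and Co3 overlapped between the strains. The number of Atp8 counts per 100 Atp6 counts was 11.4 ± 0.892 in BN-Lx females and 11.3 ± 1.45 in SHR females (SD, n = 12 each), a difference smaller than the spread between libraries.

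**Figure D3:**
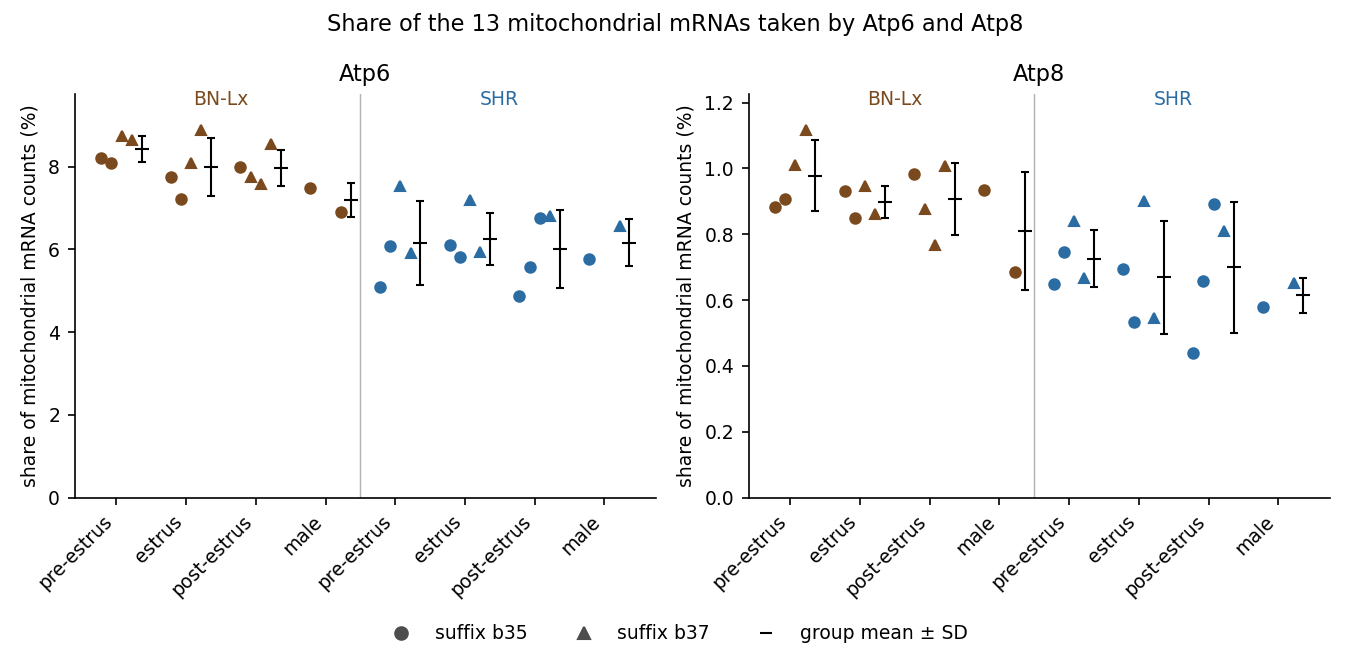
Share of the summed counts of 13 mitochondrial mRNAs (y axis, %) taken by Atp6 (left) and Atp8 (right) in every library, by strain and by stage or sex; circles are b35 and triangles b37 libraries, and bars show the group mean ± SD. For Atp6, 11 of 12 SHR females lie below the lowest BN-Lx female.

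When the libraries were scaled to the summed mitochondrial mRNAs in place of TMM, Atp6 was called lower in SHR females. Its log2 difference was -0.38, which is 1.30-fold (SE 0.07, 95% interval -0.53 to -0.23, adjusted p = 0.00118 in edgeR). Atp8 was called too, at -0.39, which is 1.31-fold (SE 0.11, 95% interval -0.61 to -0.17, adjusted p = 0.0305). The other four were not called and lay close to 0, with Cyb at 0.003 (95% interval -0.17 to 0.18), Co1 at 0.02 (-0.12 to 0.16), Co2 at -0.003 (-0.15 to 0.15) and Co3 at 0.04 (-0.17 to 0.25). The calls thus covered 2 of the 6 mRNAs, both lower, against 5.24% of all rows called under this scaling, of which 299 were higher and 652 lower. The 2 calls are not separate observations, since Atp6 and Atp8 lie on a shared transcript and their log2 CPM moved together (Pearson r = 0.94). This scaling was planned as an alternative, and it was taken up as a comparison of its own after the data had been seen. The 13 summed rows include all 6 mRNAs, with a median of 86.7% of the sum in BN-Lx females and 85.2% in SHR females. Co1 alone averaged 53.1% over the 28 libraries. The values of Co1, Co2, Co3 and Cyb are therefore held near 0 as a group, in part by the scaling itself.

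The Atp6 call was made in each of the 28 fits that left out 1 library, with adjusted p from 0.000628 to 0.00398 in edgeR. DESeq2 also made it, beside 1440 calls among all rows, as did a sum that left out Co1, beside 670. limma made it at -0.33, but there 4884 of 18134 rows were called, 4492 of them lower, and the median of all rows was -0.23. In the libraries with whole Atp6 and Atp8 counts alone, an alternative added after the data had been seen, Atp6 differed by -0.46 (adjusted p = 0.00122 in edgeR) and Atp8 by -0.49 (adjusted p = 0.0256), beside 588 calls among 18042 rows. The summed share of Atp6 and Atp8 in the pool was 9.05% ± 0.567 in BN-Lx females and 6.84% ± 0.932 in SHR females (SD, n = 12 each). Within suffixes the size was similar and the call was lost, with -0.45 among b35 libraries (adjusted p = 0.127) and -0.32 among b37 libraries (adjusted p = 0.129). The median of all rows was 0.25 in the b35 fit and -0.24 in the b37 fit, so these sizes are relative to the mitochondrial mRNAs and not to the other genes. Atp8 lost its call in 8 of the 28 fits that left out a library, with adjusted p up to 0.0719. Those libraries were BN-Lx estrus replicate 8, BN-Lx post-estrus replicates 5 and 6, BN-Lx pre-estrus replicate 7b, SHR estrus replicates 6 and 9, SHR post-estrus replicate 6 and SHR pre-estrus replicate 12. Fragment length averaged 151 ± 6.24 bases in BN-Lx females and 155 ± 10.7 in SHR females (SD, n = 12 each). With a term for it, the differences were -0.37 for Atp6 and -0.34 for Atp8, and both were called, at adjusted p of 0.00243 and 0.0197.

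The other mitochondrial rows did not all follow Atp6 and Atp8. Under TMM scaling 1 of 7 other mitochondrial mRNA rows was called between strains in females, 5 of the 7 were higher in SHR by value, and their median log2 difference was 0.04, beside 0.02 over all rows. The called row was ENSRNOG00000029042, at 0.76 (SE 0.23, adjusted p = 0.0429 in edgeR). Under scaling to the mitochondrial mRNAs, ENSRNOG00000033615 was the called row among the 7, at 0.30 (adjusted p = 0.0120). Of the ribosomal RNA rows, 0 of 2 were called under TMM scaling and 1 of 2 under mitochondrial mRNA scaling, ENSRNOG00000043866, at -0.47 (adjusted p = 0.000697). The share of mitochondrial ribosomal RNA was 34.3% ± 5.74 in BN-Lx females and 29.0% ± 4.87 in SHR females (SD, n = 12 each), and its part in the Atp6 difference was not tested.

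**Figure D4:**
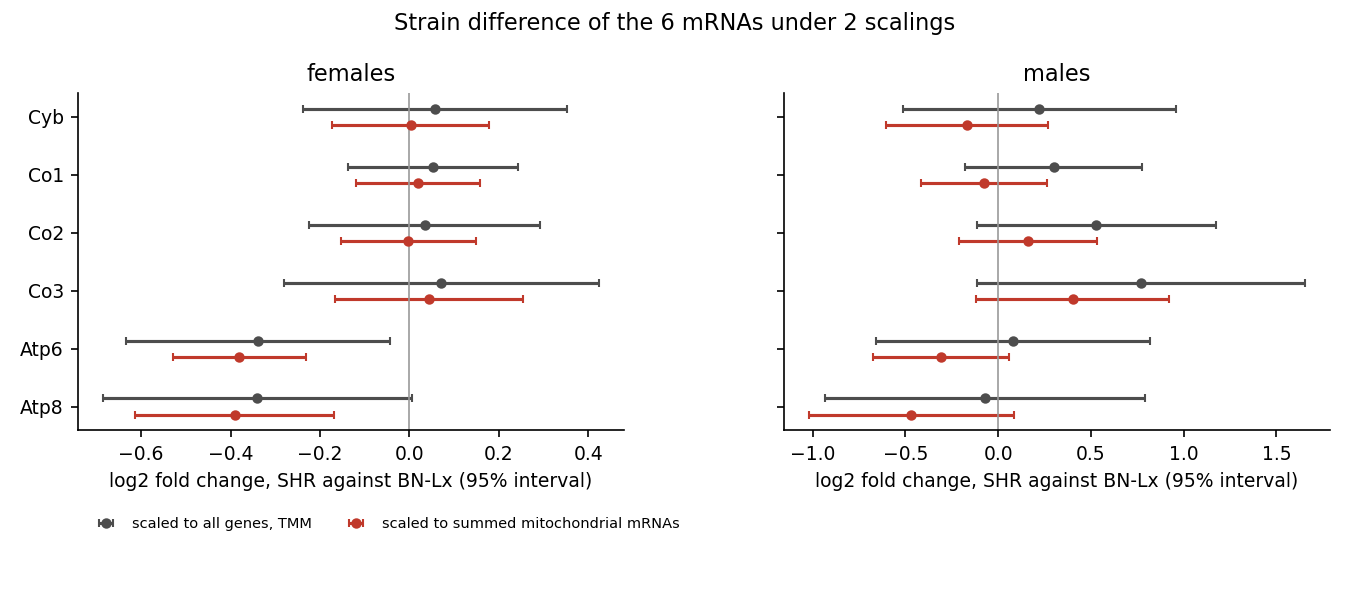
Log2 fold change of each mRNA, SHR against BN-Lx (x axis), with 95% intervals, in females (left) and males (right); grey points are scaled by TMM over all genes and red points to the summed mitochondrial mRNAs. In females, the red intervals of Atp6 and Atp8 lie below 0, and all 4 other red points lie within 0.05 of 0. The 4 others make up most of the sum used for scaling, which in part holds them near 0.

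In males, with 2 libraries a group, 0 of the 6 mRNAs were called between strains, where 0.8% of all rows were called. An unadjusted p under 0.05 in edgeR was reached by 0 of 6, beside 1826 of all 18134 rows. Co3 had 2216 and 3333 CPM in BN-Lx males and 5372 and 4258 CPM in SHR males. These values did not overlap, and its log2 difference of 0.77 had a wide interval (SE 0.43, 95% interval -0.11 to 1.65, adjusted p = 0.538 in edgeR). Co2 had 2169 and 2631 CPM in BN-Lx males and 3406 and 3308 CPM in SHR males, a difference of 0.53 (95% interval -0.12 to 1.17, adjusted p = 0.559). The differences of Co1, Cyb, Atp6 and Atp8 were 0.30, 0.22, 0.08 and -0.07, with adjusted p of 0.631 or above in edgeR.

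Scaled to the mitochondrial mRNAs, Atp6 in males differed by -0.31 (95% interval -0.67 to 0.06) and Atp8 by -0.47 (95% interval -1.02 to 0.08), with adjusted p = 0.666 for both in edgeR. Under this scaling 0 of the 6 were called in males, beside 0.458% of all rows, and the median of all rows moved to -0.38. Both Atp6 and Atp8 thus had negative values of a size like that in females, without a call.

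No sex difference was called among the 6 mRNAs. In BN-Lx, 0 of 6 were called between males and females, beside 0.0331% of all rows, and all 6 were lower in males by value, from -0.09 (Cyb) to -0.55 (Co3) on the log2 scale. Every 95% interval included 0, and the adjusted p in edgeR was 0.843 to 0.946. In SHR, 0 of 6 were called, beside 0.0276% of all rows, with differences from -0.13 (Atp8) to 0.15 (Co3). The interaction of sex with strain ran from 0.16 (Cyb) to 0.70 (Co3), with 0 of 6 called beside 0% of all rows and adjusted p of 0.784 to 0.894 in edgeR. At an unadjusted p under 0.05 in edgeR, 0 of 6 passed in each of these 3 comparisons. Of all 18134 rows, 894 passed for sex in BN-Lx, 526 for sex in SHR and 632 for the interaction.

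The stage of the cycle gave no call either. Atp6 averaged 3298 ± 766 CPM at pre-estrus, 2631 ± 536 at estrus and 2948 ± 839 at post-estrus in BN-Lx (SD, n = 4 each). In SHR it averaged 2304 ± 637, 2473 ± 270 and 2207 ± 732 CPM at the same stages. Over any difference among the 3 stages, 0 of 6 were called in BN-Lx and 0 of 6 in SHR, beside 0% of all rows in each strain. An unadjusted p under 0.05 in edgeR was reached by 0 of 6 in each strain, beside 588 of 18134 rows in BN-Lx and 116 in SHR. By limma and by DESeq2, 0 of 6 were also called in every comparison of strain, sex and stage above that used all-gene scaling. For strain in females, limma and DESeq2 each called 12.1% of all rows. For strain in males they called 4.11% and 1.74%. The stage-by-strain test also called 0 of 6, beside 0% of all rows, with adjusted p of 0.972 in edgeR. In b35 libraries alone, which leave some groups with 1 library, that test called 2 of the 6 (Co1 and Co3) among 5585 of 18602 rows.

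The share taken by Cyb followed the library suffix within BN-Lx. Its share of the mitochondrial mRNA pool in the 7 b35 libraries of BN-Lx had a lowest value of 5.97%, a median of 6.60% and a highest of 7.81%. In the 7 b37 libraries of BN-Lx the lowest was 4.07%, the median 4.57% and the highest 5.37%, so the sets did not overlap. The shares of Co1, Co2, Co3, Atp6 and Atp8 did overlap between the suffixes in BN-Lx. How many of all rows separate by suffix was not counted. In SHR the 8 b35 libraries ran from 4.48% to 6.50% and the 6 b37 libraries from 4.74% to 5.66%, and these overlapped. All BN-Lx males are b35 libraries, so sex and suffix are partly tied there. The number in the sample descriptions is tied to the suffix too. Post-estrus replicate 4 is the only b37 library of BN-Lx that shares its number with b35 libraries of BN-Lx.

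In a fit with a suffix term for each strain, added after the data had been seen, Cyb differed by -0.77 between b37 and b35 in BN-Lx (log2, SE 0.18, 95% interval -1.15 to -0.39, unadjusted p = 0.000347, adjusted p = 0.103 in edgeR). That was not a call, and 0 of the 6 mRNAs were called there beside 0.116% of all rows. The lower level in b37 was not particular to Cyb: all 6 mRNAs and all 7 other mitochondrial mRNA rows were lower by value. An unadjusted p under 0.05 in edgeR was reached by 1 of the 6 and 6 of the 7, beside 2126 of 18134 rows. ENSRNOG00000031053, at -0.96, and ENSRNOG00000029971, at -0.80, differed by more than Cyb. Over the 28 fits that left out 1 library, the Cyb difference ran from -0.86 to -0.67. Its adjusted p in edgeR ran from 0.0308, without SHR post-estrus replicate 13, up to 0.522. In SHR the Cyb difference was -0.10 (95% interval -0.45 to 0.26), with 0 of 6 called beside 0.011% of all rows. The difference between the strains in this term was 0.68 for Cyb (95% interval 0.16 to 1.19, adjusted p = 0.946), with 0 of 6 called beside 0% of all rows. It was positive by value for all 6 mRNAs and all 7 other mitochondrial mRNA rows. Of these, 1 of the 6 and 4 of the 7 had an unadjusted p under 0.05 in edgeR, beside 761 of 18134 rows. The main fit carries a single suffix term for both strains.

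**Figure D5:**
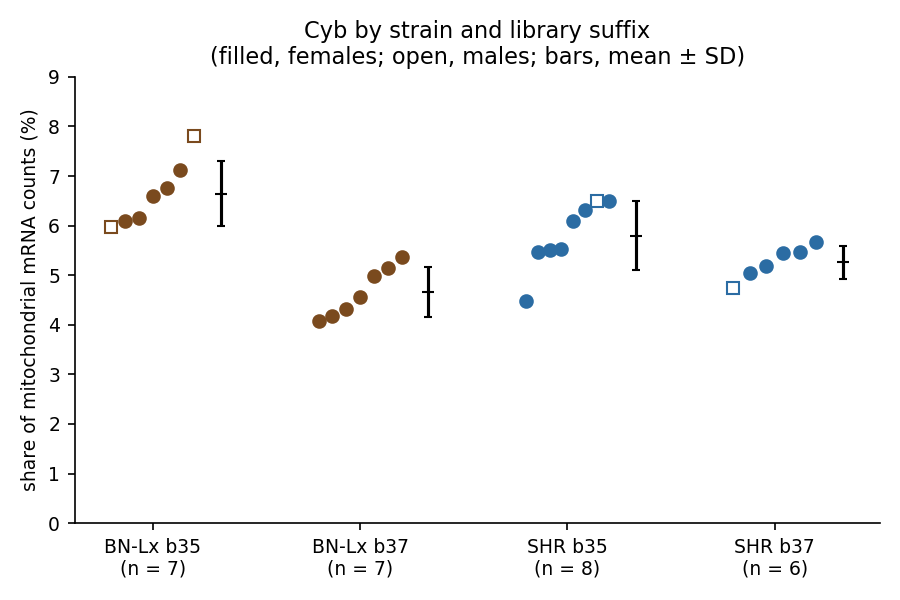
Share of the summed counts of 13 mitochondrial mRNAs taken by Cyb (y axis, %) in libraries of each strain and suffix (x axis); filled circles are females, open squares are males, and bars show mean ± SD. The BN-Lx b35 libraries, at 5.97% or above, all lie above the BN-Lx b37 libraries, at 5.37% or below. How many of all rows separate in this way was not counted.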

How the data were processed

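Rat brain RNA was made into 28 stranded libraries after ribosomal RNA removal and sequenced as paired-end reads, per the labels' protocols. The submitters' processing notes name cutadapt and RSEM without versions. No source used here gives the genome build or says whether each strain had its own reference. The deposited files hold RSEM's expected counts per gene, where reads matching more than one gene are shared out. They also hold TPM per gene, which the authors' deposited files scale by effective length with the spike-ins included, and each gene's length in bases. The deposited series table held the same expected counts for the 6 mRNAs (largest difference 0).

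The members and lists were chosen with earlier results of these data known. Names were given to the 6 mRNAs, and the 5 rows most like their mean log2 CPM were added. Nuclear subunit and cell type lists matched 0 rows, since 0 reference rows carry an Ensembl identifier, and were not tested.

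Expected counts were rounded, the 92 spike-in rows were left out, and edgeR 4.0.16 (R 4.3.3) kept rows by filterByExpr (8 groups, count minimum 10). TMM scaling and a robust quasi-likelihood fit followed, with a term for each group and one for the suffix and 19 residual degrees of freedom. Benjamini-Hochberg adjustment ran over all 18134 rows, with calls at an adjusted p under 0.05. Fold changes are log2, with 95% intervals. The script was tested on simulated data. CPM levels use TMM-scaled library sizes, and log2 CPM a prior count of 2. Alternatives included limma 3.58.1, DESeq2 1.42.0, other scalings and covariates, each suffix alone and each library left out.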

Additional observations from a re-analysis of the deposited data

How the results depend on the processing

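The counts of mRNAs called and the log2 differences were recomputed under each alternative, and the cause of each change below was not tested. The counting error of the 6 mRNAs was 1.16% or less in every library. The replicate numbers did not pair the libraries: the median correlation over 18 pairs of the same number in different groups was -0.0555, and 1 of 18 was over 0.1. With a replicate block, 0 of 6 were called in any comparison, the mitochondrially scaled one in females included, where the differences were -0.40 for Atp6 and -0.51 for Atp8 (adjusted p of 1 and 0.782). For strain in females the replicate block left 6 residual degrees of freedom. It called 0.474% of all rows there under TMM and 0.276% under mitochondrial mRNA scaling. A block for the number in the sample description could not estimate the strain difference, as each number occurs in only 1 strain. All SHR pre-estrus libraries carry the same number, so stage is partly tied to it. Over 30 pairs of that number in different groups, 12 were over 0.1, beside 101 of 292 pairs sharing neither number.

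The count in the female strain comparison was 0 under TMM and 2 under mitochondrial mRNA scaling. Scaled that way, it was 0 in b35 libraries alone and 0 in b37 libraries alone, and 1 to 2 with a library left out. The stage-by-strain count was 2 in b35 libraries alone. Over all rows, female strain calls numbered 1708 under TMM (48.4% higher), 951 under mitochondrial mRNA scaling (31.4% higher) and 470 under spike-in scaling (25.3% higher, median -0.24). The balance of these calls turned with the suffix: b35 libraries alone gave 1806 calls (67.8% higher) and b37 libraries alone 474 (40.7% higher) under TMM, and 779 (77.4% higher) and 647 (15.0% higher) under mitochondrial mRNA scaling. Under that scaling limma gave 4884 (8.0% higher). With the libraries of whole Atp6 and Atp8 counts alone, the strain difference in males could not be fitted, as no SHR male was left. For the suffix within BN-Lx, DESeq2 called 1 of 6 (Cyb, -0.78, adjusted p = 0.0104) beside 301 of all 18134 rows. With the description number block, the suffix difference in BN-Lx rests on post-estrus replicate 4 alone. That is the only b37 library of BN-Lx whose number also occurs among b35 libraries of BN-Lx. With this block Cyb was at -1.47 for the suffix within BN-Lx and at 1.66 for suffix by strain.

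Sign changes were all among values without a call. For SHR against BN-Lx in females, the values were Co1 -0.084, Co2 -0.15, Co3 -0.077 and Cyb -0.33 in b35 libraries alone, Co2 -0.003 under mitochondrial mRNA scaling, Cyb -0.20 with the replicate block, and Co1 -0.17, Co2 -0.22, Co3 -0.16 and Cyb -0.16 under spike-in scaling. Leaving out a library there moved Co2 from -0.021 to 0.093 and Co3 from -0.010 to 0.18. For the same comparison scaled to the mitochondrial mRNAs, the values were Co2 0.006 and Cyb -0.19 in b35 libraries alone, Co1 -0.042, Co2 0.001 and Co3 -0.010 in b37 libraries alone, Co2 0.010 with the fragment length term, Co1 -0.030 and Co2 0.012 by limma, Co2 0.040 and Cyb -0.21 with the replicate block, Co2 0.022 with the sum without Co1, and Co3 -0.037 in the libraries with whole Atp6 and Atp8 counts alone. Leaving out a library there moved Co1 from -0.002 to 0.042, Co2 from -0.035 to 0.031, Co3 from -0.002 to 0.10 and Cyb from -0.026 to 0.040. For SHR against BN-Lx in males, the values were Atp6 -0.052 in b35 libraries alone, Atp6 -0.063 with the compared libraries alone, Atp8 0.21 with the fragment length term, Atp6 -0.31, Co1 -0.076 and Cyb -0.17 under mitochondrial mRNA scaling, Atp8 0.13 with the replicate block, and Atp6 -0.022 under spike-in scaling. Leaving out a library there moved Atp6 from -0.052 to 0.22 and Atp8 from -0.21 to 0.077. For males scaled to the mitochondrial mRNAs, leaving out a library moved Cyb from -0.35 to 0.041. For males against females in BN-Lx, the values were Cyb 0.021 by limma, Co1 0.051 and Cyb 0.19 under mitochondrial mRNA scaling, and Cyb 0.12 without the suffix term. Leaving out a library there moved Cyb from -0.19 to 0.072. For males against females in SHR, the values were Co1 -0.032 in b35 libraries alone, Cyb -0.076 in b37 libraries alone, Atp6 -0.12 and Co2 -0.018 with the description number block, Atp8 0.13 and Co1 -0.046 with the fragment length term, Atp6 -0.007 and Co1 -0.044 under mitochondrial mRNA scaling, Atp6 -0.50, Co1 -0.41, Co2 -0.47, Co3 -0.86 and Cyb -0.22 with the replicate block, and Atp6 -0.094, Co1 -0.083, Co2 -0.052, Co3 -0.025 and Cyb -0.085 under spike-in scaling. Leaving out a library there moved Atp6 from -0.081 to 0.19, Atp8 from -0.28 to 0.003, Co1 from -0.084 to 0.17 and Co3 from -0.014 to 0.30. For sex by strain, the values were Atp8 -0.23 with the description number block, Atp8 -0.077, Co1 -0.095 and Cyb -0.17 under mitochondrial mRNA scaling, and Cyb -0.050 without the suffix term. For the suffix within SHR, the values were Cyb 0.19 with the description number block.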
